A study of Mus musculus with 16 samples.

Results

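CD9+ macrophages were compared with F4/80- myeloid cells at day 14 after anterior cruciate ligament reconstruction (ACLR) in mice. The comparison rests on 4 of the 16 libraries of the series, 2 of CD9+ macrophages and 2 of F4/80- myeloid cells, chosen by the sort gate and day in their labels. Both populations were sorted from the tissue at the interface of the tendon graft and the bone of wild-type C57BL/6 mice. All mice were males aged 12 weeks at the operation. All sorted cells were alive, negative for lineage markers and Ly6G, and positive for CD45 and CD11b. CD9+ macrophages were in addition F4/80+ and CD9+, and F4/80- myeloid cells lacked F4/80 with no gate on CD9. Every animal had the operation, so neither group is an unoperated control. Each library was made from a pool of 5 to 7 mice, so the 2 libraries of a group show the spread between pools. The p-values measure only spread of that kind, estimated from all 16 libraries together and with information shared across genes. The CD9+ gate set no limit on CX3CR1, and by the paper's account cells carrying both proteins were rare and were sorted with the CD9+ group. The series also holds CX3CR1+ macrophages and Ly6G+ neutrophils, and all 4 populations were sorted at days 1 and 14.

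Macrophages in healing tissue arise from resident cells and from blood monocytes. They clear dying cells and lipid debris, present antigen, and release proteases, growth factors and chemokines. F4/80, encoded by Adgre1, is the usual surface marker of mouse macrophages, and eosinophils can carry it too. CD9 is a tetraspanin, a membrane protein with 4 spans that organises integrins and receptors and is found on macrophages, granulocytes and platelets. CD11b+ cells without F4/80 and Ly6G can include monocytes, granulocyte precursors, basophils and dendritic cells. Basophils are known for receptors of IgE and for granule proteases, and eosinophils for the cationic proteins and ribonucleases of their granules.

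The deposited values were raw read counts for 20200 genes. The 4 libraries held between 9233952 and 11939727 counts. Levels are given as CPM, counts scaled to the library total, after TMM scaling, a correction for library composition. They can be compared between libraries for 1 gene but not between genes, since they are not divided by gene length. The 2 CD9+ libraries had a Pearson correlation of 0.978 across tested genes on the log2 scale and the 2 F4/80- libraries 0.988. In bulk samples, fewer cells of a type and less RNA per cell cannot be told apart.

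The genes behind the sort were read first. Adgre1 (chromosome 17, 57358691 to 57483527, mm10) had 145 and 217 CPM in CD9+ and 8.87 and 9.22 CPM in F4/80- libraries (log2 fold change 4.32, standard error 0.25, edgeR adjusted p = 3.19e-08). Both CD9+ libraries thus stood far above both F4/80- libraries for the F4/80 gene. Cd9 (chromosome 6, 125460266 to 125494791) had 142 and 184 CPM in CD9+ and 114 and 121 CPM in F4/80- libraries. The CD9+ libraries were the higher ones and did not overlap with the others, but the log2 fold change of 0.47 (standard error 0.13, edgeR adjusted p = 0.02) was under the size set for a call. Both F4/80- libraries held Cd9 RNA. Itgam, which encodes CD11b, had 208 and 209 CPM in CD9+ and 186 and 203 CPM in F4/80- libraries, a log2 fold change of 0.101 that was not called. Ly6g was low in both, with 4.99 and 2.64 CPM in CD9+ and 8.22 and 10.1 CPM in F4/80- libraries (edgeR adjusted p = 0.0604). Cx3cr1, the fractalkine receptor gene, had 78.1 and 108 CPM in CD9+ and 37.6 and 41.1 CPM in F4/80- libraries (log2 fold change 1.24, standard error 0.17, edgeR adjusted p = 1.64e-04), although the CD9+ gate did not select on it, and the call was lost without CD9+ library 2.

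Among genes of at least 20 CPM in the higher group, the largest differences lay in complement, scavenger receptor and eosinophil granule genes on the CD9+ side, and in Cd7, basophil genes, Il6, Ifitm1, the chemokine gene Ccl4 and Cdh1 on the F4/80- side. A gene was called when its Benjamini-Hochberg adjusted p from edgeR's quasi-likelihood test was under 0.05 and its absolute log2 fold change was at least 1. The test covered the 11998 genes with a mean of at least 3 CPM in at least 1 of the 8 groups. Of these, 924 (7.7%) were called, 791 higher in CD9+ macrophages (6.59%) and 133 lower (1.11%), and the 2 CD9+ libraries overlapped with the F4/80- libraries for none of them. Libraries also failed to overlap for 63.3% of all tested genes, and the exact permutation test on 2 against 2 libraries cannot go below p = 0.333. The median log2 fold change was 2.25 for the genes called higher, -1.47 for those called lower and 0.0079 over all tested genes. Of the genes called higher, 287 differed by a log2 fold change of at least 3, and of those called lower, 22. The F4/80- libraries held 3 counts or fewer in total for 67 of the genes called higher, and the CD9+ libraries for 7 of those called lower. Without CD9+ library 2 the number of called genes was 534, and without F4/80- library 2 it was 598.

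**Figure D1:**
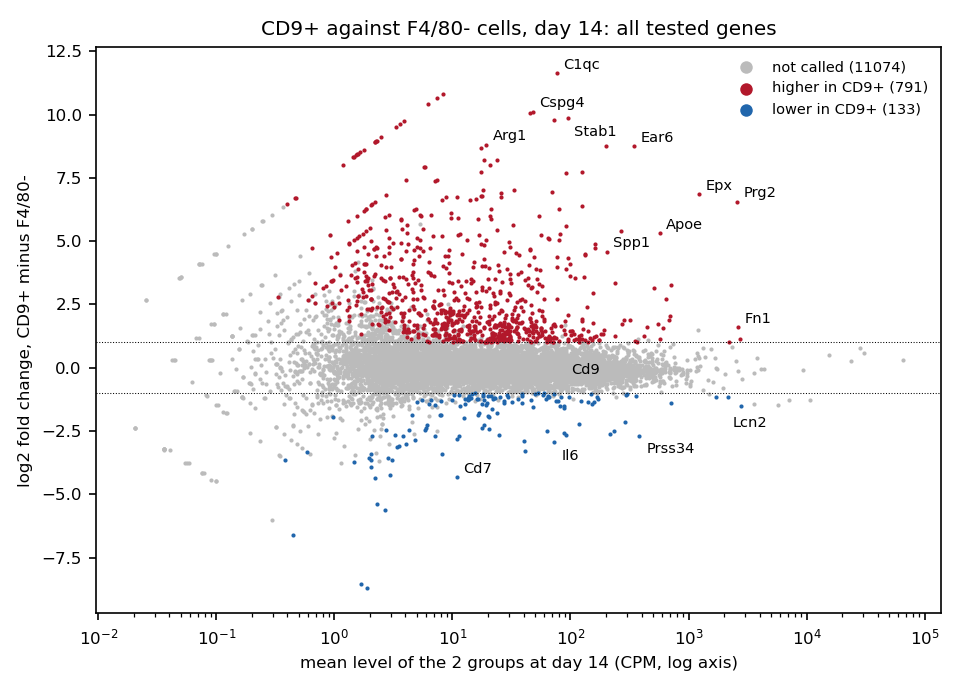
Each point is 1 of 11998 tested genes, with the mean of the 2 group levels at day 14 in CPM on a log axis and the log2 fold change of CD9+ minus F4/80- cells. Red points are the 791 genes called higher in CD9+ macrophages and blue points the 133 called lower; dotted lines mark a log2 fold change of 1 and -1, and Cd9 itself lies between them.

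The 12 largest fitted differences among genes of at least 20 CPM included all 3 chains of C1q, which opens the classical complement pathway. C1qc (chromosome 4, 136889804 to 136893065) had 123 and 183 CPM in CD9+ and 0 and 0.0816 CPM in F4/80- libraries, the latter from 1 read, which gives a ratio of 3958 (counting interval 709.8 to 156368) (edgeR adjusted p = 1.62e-07). For genes with 1 to 3 counts over both F4/80- libraries the ratio of summed, scaled counts is given with its exact 95% interval, which covers counting error only. C1qa had 72.8 and 109 CPM in CD9+ and 0 and 0.163 CPM in F4/80- libraries, a ratio of 1176 (counting interval 325 to 9720.1). C1qb, with 4 counts in the F4/80- libraries, had 107 and 184 CPM in CD9+ and 0.0727 and 0.245 CPM in F4/80- libraries (log2 fold change 9.799, standard error 0.73, edgeR adjusted p = 2.69e-07). All 3 genes were thus close to absent from the F4/80- libraries. Stab1, which encodes the scavenger receptor stabilin-1, had 141 and 239 CPM in CD9+ and 0.0727 and 0.326 CPM in F4/80- libraries (log2 fold change 9.88, standard error 0.65, edgeR adjusted p = 8.83e-08). Cspg4 encodes the NG2 chondroitin sulfate proteoglycan, known mainly from pericytes and progenitor cells, and had 78.3 and 113 CPM in CD9+ and 0 and 0.163 CPM in F4/80- libraries, a ratio of 1237 (counting interval 342 to 10223). Arg1, which encodes the arginine-degrading enzyme of alternatively activated macrophages, had 33.5 and 43.998 CPM in CD9+ and 0 and 0.163 CPM in F4/80- libraries, a ratio of 502 (counting interval 138 to 4152). The growth factor gene Igf1 had 27.6 and 42.2 CPM in CD9+ and 0.145 and 0 CPM in F4/80- libraries, a ratio of 451 (counting interval 124 to 3734). Arg1 and Igf1 each had 2 reads over both F4/80- libraries. The membrane protein gene Ms4a7 had 26.5 and 46.7 CPM in CD9+ and 0.0727 and 0.163 CPM in F4/80- libraries, and Pdpn, which encodes podoplanin, had 31.8 and 51.4 CPM in CD9+ and 0 and 0.326 CPM in F4/80- libraries. Ahnak2 had 30.04 and 64.98 CPM in CD9+ and 0.145 and 0.163 CPM in F4/80- libraries, and the ribonuclease genes Ear1 and Ear6 complete the group.

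**Figure D2:**
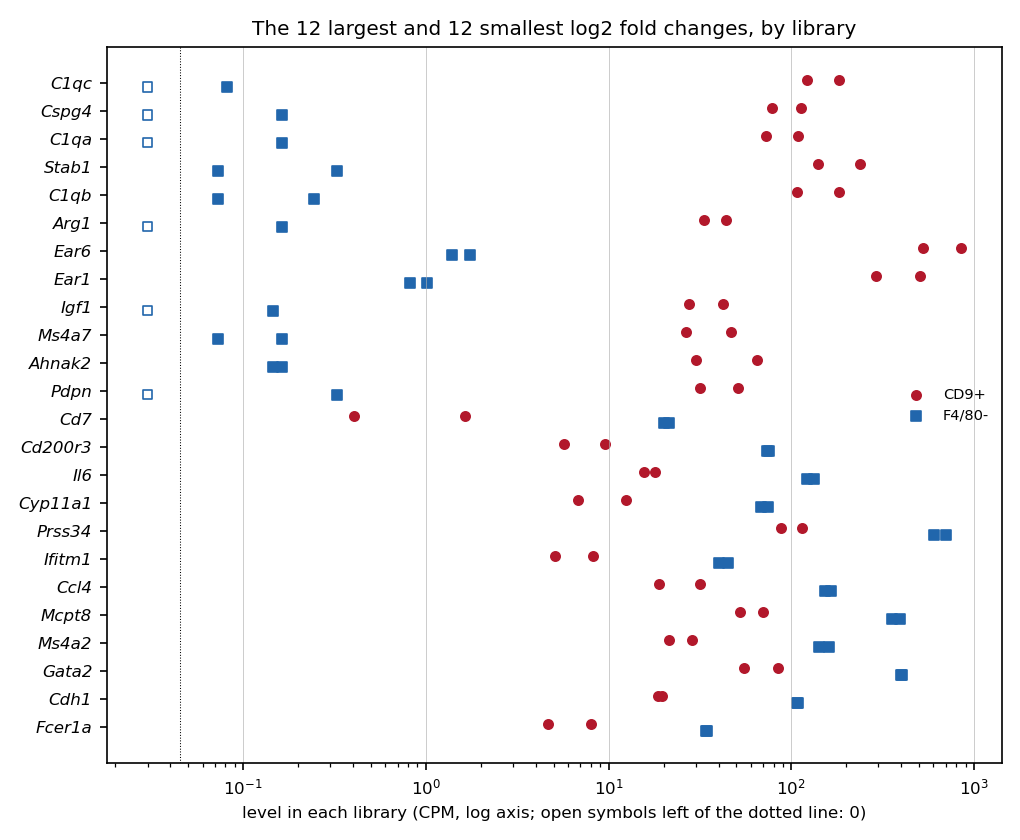
Level of each gene in CPM on a log axis in the 2 CD9+ libraries (red circles) and the 2 F4/80- libraries (blue squares) at day 14, for the 12 largest and 12 smallest log2 fold changes among genes of at least 20 CPM in the higher group; open symbols mark a level of 0. In each row both libraries of one group lie to one side of both libraries of the other.

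The 10 genes with the smallest p-values on the CD9+ side included genes of lipid handling, endocytosis and the cell membrane. Pla2g7, which encodes the enzyme that degrades platelet-activating factor, had 93.1 and 126 CPM in CD9+ and 2.47 and 3.26 CPM in F4/80- libraries (log2 fold change 5.26, standard error 0.19, edgeR adjusted p = 3.50e-10). Apoe, the apolipoprotein E gene (chromosome 7, 19696109 to 19699188), had 829 and 1412 CPM in CD9+ and 26.8 and 29.5 CPM in F4/80- libraries (log2 fold change 5.31, standard error 0.25, edgeR adjusted p = 4.30e-09). The lower CD9+ library was thus far above both F4/80- libraries. Dab2, which encodes an endocytic adaptor, had 116 and 196 CPM in CD9+ and 1.67 and 2.45 CPM in F4/80- libraries (log2 fold change 6.25, standard error 0.295, edgeR adjusted p = 4.30e-09). Nrp2, the neuropilin-2 gene, had 125 and 169 CPM in CD9+ and 6.98 and 7.101 CPM in F4/80- libraries. Cd36, the gene of a receptor for fatty acids and oxidised lipoproteins, had 106 and 173 CPM in CD9+ and 0.655 and 1.63 CPM in F4/80- libraries. Myof, which encodes the membrane repair protein myoferlin, had 122 and 191 CPM in CD9+ and 3.78 and 5.88 CPM in F4/80- libraries (log2 fold change 5.03, standard error 0.29, edgeR adjusted p = 2.56e-08). In each of these the second CD9+ library was higher than the first, and the F4/80- libraries differed from each other by far less than from the CD9+ libraries.

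Marker lists of other cell types were summed to show what else moved with the sort. In the macrophage identity list, 18 of 20 tested genes were called higher and 0 lower, with a median log2 fold change of 3.79, beside 0.0079 over all tested genes. Its summed level was 1558 and 2402 CPM in the CD9+ libraries and 295 and 277 CPM in the F4/80- libraries. In the eosinophil list, 12 of 13 tested genes were called higher and 0 lower, with a median log2 fold change of 5.41. Its summed level was 7709 and 12372 CPM in the CD9+ libraries and 169.7 and 202 CPM in the F4/80- libraries, against 205 and 179.8 CPM in the CX3CR1+ libraries. The lower CD9+ sum was thus above each F4/80- and CX3CR1+ sum, and the second CD9+ library was the higher one for both the macrophage and the eosinophil list. At day 1 the CD9+ libraries summed to 806 and 835 CPM. The part of eosinophil RNA in the other results was not tested. The basophil and mast cell list ran the other way: 0 of 12 tested genes were called higher and 9 lower, with a median log2 fold change of -2.55. Its summed level was 700.4 and 610.2 CPM in the CD9+ libraries and 2451 and 2261 CPM in the F4/80- libraries. Both CD9+ sums were below both F4/80- sums, and neither was near 0.

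Granule and receptor genes of eosinophils were called together. Prg2, which encodes major basic protein, had 3927 and 6237 CPM in CD9+ and 42.6 and 65.3 CPM in F4/80- libraries (log2 fold change 6.56, standard error 0.5998, edgeR adjusted p = 2.28e-06). Epx, the eosinophil peroxidase gene (chromosome 11, 87864000 to 87875536), had 1816 and 3066 CPM in CD9+ and 15.9 and 26.2 CPM in F4/80- libraries (log2 fold change 6.86, standard error 0.62, edgeR adjusted p = 2.20e-06). These 2 granule genes alone gave most of the summed level of the list. Both were high in each CD9+ library and low in each F4/80- library. Il5ra, which encodes the interleukin-5 receptor chain, had 35.1 and 48.1 CPM in CD9+ and 0.655 and 0.735 CPM in F4/80- libraries (log2 fold change 5.89, standard error 0.57, edgeR adjusted p = 6.02e-06). Ccr3, the eotaxin receptor gene, had 39.9 and 36.6 CPM in CD9+ and 2.11 and 2.94 CPM in F4/80- libraries (log2 fold change 3.92, standard error 0.48, edgeR adjusted p = 3.80e-05). Siglecf had 43.001 and 59.4 CPM in CD9+ and 18.6 and 21.1 CPM in F4/80- libraries, a smaller difference whose call was lost without CD9+ library 2 or F4/80- library 1. Il1rl1, which encodes the interleukin-33 receptor and is shared with basophils and mast cells, was not called (17.8 and 19.97 CPM in CD9+ and 26.5 and 21.8 CPM in F4/80- libraries). The ribonuclease genes Ear1, Ear2 and Ear6 belong to a family of closely similar genes, so reads may be split among them. Ear1 had 292 and 505 CPM in CD9+ and 1.02 and 0.816 CPM in F4/80- libraries, Ear2 394 and 662 against 14.4 and 10.3 CPM, and Ear6 528 and 852 against 1.75 and 1.39 CPM.

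The sequences before RefSeq's starts of Ear1 and Ear6 are alike, and capitals mark the longest run of letters that both share, 40 bases. They are the 150 bases before each start, read from RefSeq's annotation of GRCm38.p6, the assembly behind mm10. These starts differ from those of the counted genes. The Ear1 stretch lies inside the counted gene (43818765 to 43875517), and the Ear6 stretch runs past the counted start at 51853699. Whether reads were split among the genes was not tested.
Ear1, chr14:43819640-43819789, minus strand: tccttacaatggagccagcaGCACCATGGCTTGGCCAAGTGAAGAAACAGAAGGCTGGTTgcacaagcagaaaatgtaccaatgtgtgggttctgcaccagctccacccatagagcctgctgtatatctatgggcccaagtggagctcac
Ear6, chr14:51853618-51853767, plus strand: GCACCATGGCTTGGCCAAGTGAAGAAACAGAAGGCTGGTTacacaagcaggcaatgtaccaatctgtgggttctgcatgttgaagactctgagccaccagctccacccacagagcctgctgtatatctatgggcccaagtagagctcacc

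Of the 12 smallest log2 fold changes among genes of at least 20 CPM, 7 belonged to genes of the basophil and mast cell list. Mcpt8 (chromosome 14, 56082166 to 56085273), a granule protease gene of basophils, had 69.9 and 52.6 CPM in CD9+ and 392 and 354 CPM in F4/80- libraries (log2 fold change -2.61, standard error 0.31, edgeR adjusted p = 3.30e-05). Prss34, which encodes another basophil protease, had 115 and 88.4 CPM in CD9+ and 705 and 607 CPM in F4/80- libraries (log2 fold change -2.69, standard error 0.27, edgeR adjusted p = 5.36e-06). Both protease genes were lower in each CD9+ library than in each F4/80- library. Fcer1a and Ms4a2 encode the alpha and beta chains of the high-affinity IgE receptor. Ms4a2 had 28.8 and 21.5 CPM in CD9+ and 161 and 142 CPM in F4/80- libraries (log2 fold change -2.59, standard error 0.38, edgeR adjusted p = 2.68e-04). Fcer1a had 8.06 and 4.66 CPM in CD9+ and 34.7 and 34.4 CPM in F4/80- libraries, with a call lost under DESeq2 and when CD9+ library 2, F4/80- library 1 or F4/80- library 2 was left out. Gata2, the transcription factor gene of basophils, mast cells and progenitors, had 84.6 and 55.3 CPM in CD9+ and 398 and 403 CPM in F4/80- libraries (log2 fold change -2.52, standard error 0.31, edgeR adjusted p = 4.17e-05). Cpa3, the carboxypeptidase A3 gene, had 37.3 and 46.2 CPM in CD9+ and 207 and 179 CPM in F4/80- libraries, and Cd200r3, a receptor gene of basophils and mast cells, had 9.598 and 5.68 CPM in CD9+ and 75.4 and 73.9 CPM in F4/80- libraries (log2 fold change -3.28, standard error 0.38, edgeR adjusted p = 3.62e-05). Cyp11a1, which encodes the first enzyme of steroid synthesis, was on the basophil list and had 12.5 and 6.79 CPM in CD9+ and 74.3 and 68.6 CPM in F4/80- libraries. Hdc, the histidine decarboxylase gene, was not called, with 201 and 199 CPM in CD9+ and 285 and 275 CPM in F4/80- libraries (edgeR adjusted p = 0.243). The cytokine gene Il4 was low in all 4 libraries and not called (4.03 and 4.16 CPM in CD9+ and 6.62 and 8.81 CPM in F4/80- libraries).

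The 250 bases before the start of the genes in RefSeq's promoter table were searched on both strands for 15 strings, each the form of site a factor or box is known for. They were AGATAA for GATA factors, CACGTG for the E-box, TCACGTGA for MITF and TFEB, GAGGAAGT for PU.1, CCAAT for the CCAAT box, GGAANTTCC for NF-kappaB, TGANTCA for AP-1, TTGCNNAA for C/EBP, TATAAA for the TATA box, TTNCNNGAA for STAT factors, AACCACA for RUNX factors, GGGCGG for SP1, TGACGTCA for CREB, the interferon-stimulated response element and the liver X receptor element. TCACGTGA contains CACGTG. The strings were chosen with the results known, and a match is a description only. AGATAA was present in 9.99% of all 32851 promoters and in 5.85% of the 8851 promoters of tested genes. It was found in 7 of 15 promoters of the basophil and mast cell list, namely those of Fcer1a, Ms4a2, Cpa3, Cd200r3, Prss34, Il13 and Il6ra. All of these but Il6ra were called lower in CD9+ macrophages, with the call of Fcer1a lost as given above and that of Il13 lost without CD9+ library 1. It was present in 17.5% of the 103 promoters of genes called lower and in 5.96% of the 587 of genes called higher. The neutrophil list held it in 5 of 19 promoters and the eosinophil list in 3 of 11, those of Ccr3, Il5ra and Il1rl1. Ccr3 and Il5ra were called higher in CD9+ macrophages, so the string was not confined to genes called lower. The 150 bases before 2 genes of the basophil and mast cell list are shown with AGATAA, or its reverse complement, in capitals.
Prss34, chr17:25298244-25298393, plus strand: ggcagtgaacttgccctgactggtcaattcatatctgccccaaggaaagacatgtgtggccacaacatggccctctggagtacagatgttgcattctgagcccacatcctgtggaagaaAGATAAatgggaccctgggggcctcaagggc
Ms4a2, chr19:11623720-11623869, minus strand: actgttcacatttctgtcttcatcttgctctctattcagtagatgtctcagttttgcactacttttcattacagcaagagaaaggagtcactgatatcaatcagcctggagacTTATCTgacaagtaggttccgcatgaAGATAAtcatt

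Neutrophil granule messages were abundant in both populations, although Ly6G+ cells had been gated out. In the neutrophil list, 2 of 20 tested genes were called higher and 4 lower, with a median log2 fold change of -1.05, or -0.89 with genes of 3 counts or fewer at their bound. Its summed level was 23402 and 15707 CPM in the CD9+ libraries and 45532 and 49501 CPM in the F4/80- libraries, and the part of these messages in the other results was not tested. Ltf, the lactoferrin gene, had 3759 and 2318 CPM in CD9+ and 8006 and 8926 CPM in F4/80- libraries (edgeR adjusted p = 0.0735), a difference that did not pass the test. S100a9 had 5028 and 3277 CPM in CD9+ and 9543 and 10386 CPM in F4/80- libraries (edgeR adjusted p = 0.0771), also not called. Lcn2, which encodes an iron-trapping granule protein, was called lower with 1786 and 1146 CPM in CD9+ and 3912 and 4377 CPM in F4/80- libraries (log2 fold change -1.499, standard error 0.35, edgeR adjusted p = 0.0101), a call lost without CD9+ library 2 or F4/80- library 2. The number of list genes called lower was 0 without CD9+ library 2 or F4/80- library 2, 2 without F4/80- library 1 and 9 in a fit of the day 14 libraries alone. Retnlg, a resistin-like gene of granulocytes, went against its list with 243 and 265 CPM in CD9+ and 10.5 and 12.3 CPM in F4/80- libraries (log2 fold change 4.47, standard error 0.31, edgeR adjusted p = 1.49e-07). The progenitor and azurophil granule list held 1 gene called higher and 3 called lower of 17, or 1 lower without CD9+ library 2. Mpo had 1218 and 721 CPM in CD9+ and 1975 and 1994 CPM in F4/80- libraries without a call. Flt3, a receptor gene of progenitors and dendritic cells, was called lower with 5.86 and 5.68 CPM in CD9+ and 29.8 and 29.9 CPM in F4/80- libraries (log2 fold change -2.37, standard error 0.39, edgeR adjusted p = 6.07e-04).

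Of the other lists, the conventional dendritic cell list had 3 of 16 genes called lower and 1 higher. Dpp4 had 9.02 and 7.91 CPM in CD9+ and 35.7 and 28.97 CPM in F4/80- libraries (log2 fold change -1.93, standard error 0.27, edgeR adjusted p = 1.64e-04). The monocyte list had 5 of 16 genes called higher and 1 lower, and its defining genes Ccr2 (267 and 334 CPM in CD9+ and 321 and 268 CPM in F4/80- libraries) and Ly6c2 (304 and 220.5 CPM in CD9+ and 325 and 318 CPM in F4/80- libraries) were at similar levels in both populations. In the B and plasma cell list Ighm was called higher (875 and 930.2 CPM in CD9+ and 277 and 329 CPM in F4/80- libraries), and its summed level was 2331 and 1933 CPM in the CD9+ libraries and 1246 and 885 CPM in the F4/80- libraries. The T and NK cell list summed to 46.9 and 54.03 CPM in the CD9+ libraries and 59.6 and 60.4 CPM in the F4/80- libraries, with 1 of 6 tested genes called lower, a call lost without CD9+ library 2, F4/80- library 1 or F4/80- library 2. In the plasmacytoid dendritic cell list 2 of 6 genes were called lower, 1 without CD9+ library 2 or F4/80- library 1, and in the erythroid and platelet list 1 of 7 higher. Cd7, a surface protein gene of lymphoid cells and some dendritic cells, was outside these lists and had 1.63 and 0.406 CPM in CD9+ and 19.9999 and 21.4 CPM in F4/80- libraries (log2 fold change -4.32, standard error 0.67, edgeR adjusted p = 3.85e-04). The adhesion gene Cdh1, encoding E-cadherin, had 19.7 and 18.7 CPM in CD9+ and 108 and 108 CPM in F4/80- libraries (log2 fold change -2.49, standard error 0.24, edgeR adjusted p = 3.25e-06). Padi2, a citrullinating enzyme gene, had 49.1 and 41.7 CPM in CD9+ and 137 and 124 CPM in F4/80- libraries.

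Within the macrophage identity list, a transcription factor gene was among those called higher. Maf had 42.5 and 85.5 CPM in CD9+ and 1.45 and 1.06 CPM in F4/80- libraries (log2 fold change 5.65, standard error 0.45, edgeR adjusted p = 5.29e-07). Csf1r, the receptor gene for the growth factor on which macrophages depend, had 374 and 519.7 CPM in CD9+ and 125 and 119 CPM in F4/80- libraries (log2 fold change 1.87, standard error 0.19, edgeR adjusted p = 7.48e-06). It was present at over 100 CPM in the F4/80- libraries too. Mertk, which encodes a receptor for dying cells, had 12.1 and 20.3 CPM in CD9+ and 0.291 and 0 CPM in F4/80- libraries (log2 fold change 6.64, standard error 0.87, edgeR adjusted p = 6.81e-05), and its ligand gene Gas6 had 16.99 and 26.5 CPM in CD9+ and 0.145 and 0.245 CPM in F4/80- libraries (log2 fold change 6.75, standard error 0.81, edgeR adjusted p = 2.92e-05). The mannose receptor gene Mrc1 had 81.2 and 109 CPM in CD9+ and 8.73 and 8.16 CPM in F4/80- libraries, and the sialic acid receptor gene Siglec1 had 19.96 and 35.4 CPM in CD9+ and 0 and 0.571 CPM in F4/80- libraries. Of the 20 tested genes of the list, Cd163 and Tlr4 were the 2 not called, with 3.26 and 2.64 CPM in CD9+ and 2.76 and 2.77 CPM in F4/80- libraries for Cd163. In the efferocytosis list, which shares Mertk, Axl, Mrc1 and Cd36 with others, 9 of 14 tested genes were called higher and 0 lower, with a median log2 fold change of 3.37. Lrp1, encoding an endocytic receptor, had 1040.4 and 1518 CPM in CD9+ and 132 and 137 CPM in F4/80- libraries (log2 fold change 3.25, standard error 0.25, edgeR adjusted p = 3.19e-07). In the complement and Fc receptor list, 9 of 18 tested genes were called higher and 0 lower, with a median log2 fold change of 1.21. Its summed level overlapped between the groups, with 3268 and 3339 CPM in CD9+ and 3289 and 3563 CPM in F4/80- libraries. C3ar1, the receptor gene for C3a, had 159.6 and 317 CPM in CD9+ and 18.2 and 21.2 CPM in F4/80- libraries (log2 fold change 3.597, standard error 0.36, edgeR adjusted p = 4.86e-06).

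**Figure D3:**
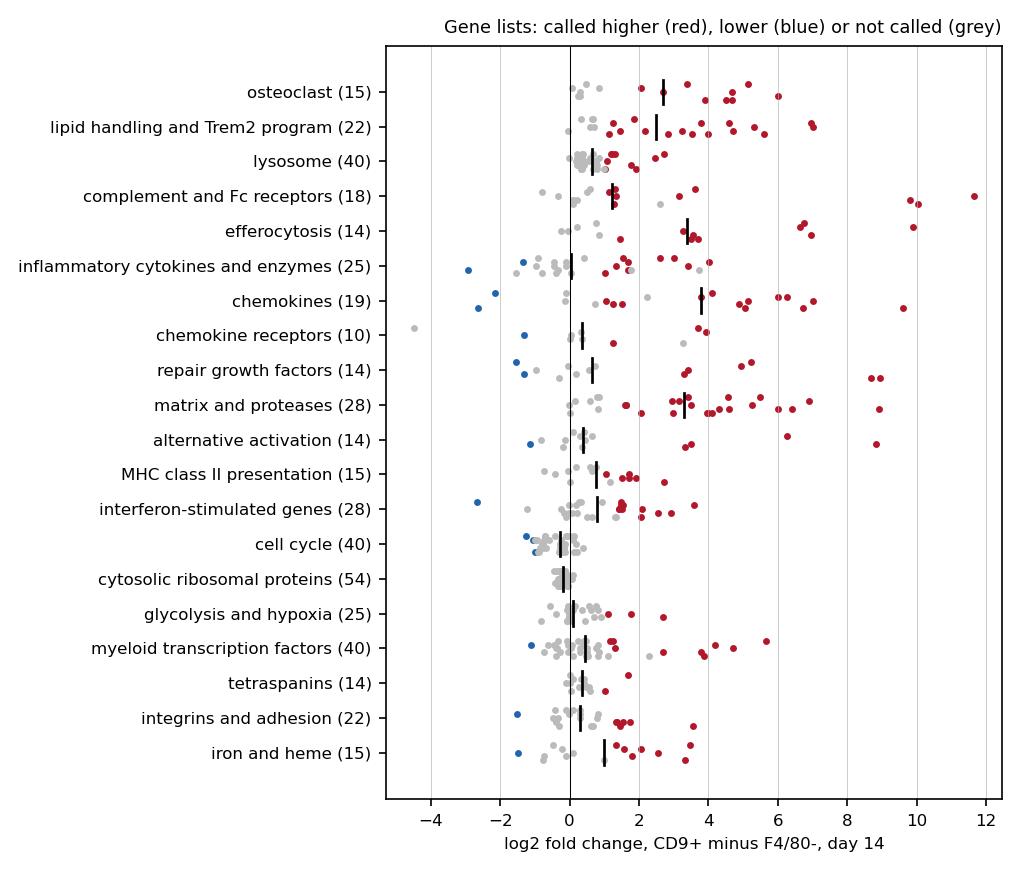
Log2 fold change of CD9+ minus F4/80- cells at day 14 for each tested gene of the function lists (number of genes in brackets), red where called higher, blue where called lower and grey where not called; black bars are list medians. The medians of the chemokine, efferocytosis and matrix lists lie above 3, and that of the ribosomal protein list at -0.20.

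Genes of lipid handling were higher in CD9+ macrophages: 16 of 22 tested genes were called higher and 0 lower, with a median log2 fold change of 2.501. Gpnmb, a glycoprotein gene of lipid-laden and bone-resorbing cells, had 42.8 and 90.2 CPM in CD9+ and 0.364 and 0.653 CPM in F4/80- libraries (log2 fold change 7.03, standard error 0.48, edgeR adjusted p = 1.41e-07). Abca1, the gene of the cholesterol exporter, had 129 and 228 CPM in CD9+ and 3.35 and 3.999 CPM in F4/80- libraries (log2 fold change 5.604, standard error 0.402, edgeR adjusted p = 1.99e-07). Trem2, encoding a lipid-sensing receptor, had 25.3 and 54.03 CPM in CD9+ and 5.89 and 5.22 CPM in F4/80- libraries (log2 fold change 2.83, standard error 0.37, edgeR adjusted p = 8.59e-05). The nuclear receptor gene Pparg had 9.12 and 15.6 CPM in CD9+ and 0.364 and 0.571 CPM in F4/80- libraries. Tyrobp, whose product is the signalling partner of Trem2, was not called, with 179 and 198 CPM in CD9+ and 196 and 194 CPM in F4/80- libraries. In the osteoclast list, 9 of 15 tested genes were called higher and 0 lower, with a median log2 fold change of 2.68. Fewer of its genes were called higher whichever of the 4 libraries was left out. Ctsk, which encodes the collagen-cutting protease cathepsin K, had 129 and 123 CPM in CD9+ and 0.509 and 6.86 CPM in F4/80- libraries, and Acp5, the gene of tartrate-resistant acid phosphatase, had 87.5 and 104 CPM in CD9+ and 4.51 and 8.41 CPM in F4/80- libraries (log2 fold change 3.89, standard error 0.39, edgeR adjusted p = 5.73e-06). The F4/80- libraries differed from each other for Ctsk, and its call was lost without F4/80- library 1. Atp6v0d2, a proton pump subunit gene, had 33.9 and 47.6 CPM in CD9+ and 0.0727 and 1.22 CPM in F4/80- libraries (log2 fold change 6.01, standard error 1.01, edgeR adjusted p = 7.79e-04). The proton pump and chloride channel genes Tcirg1 and Clcn7, which osteoclasts share with other cells, were not called, with log2 fold changes of 0.068 and 0.86. In the lysosome list, 9 of 40 tested genes were called higher and 0 lower, with a median log2 fold change of 0.66, and 5 genes were called higher without CD9+ library 2. Ctss had 858 and 1402 CPM in CD9+ and 174 and 168 CPM in F4/80- libraries (log2 fold change 2.72, standard error 0.24, edgeR adjusted p = 1.80e-06). Ctsb had 786 and 1381 CPM in CD9+ and 293 and 287 CPM in F4/80- libraries. In the iron and heme list, 7 of 15 tested genes were called higher and 1 lower, with a median log2 fold change of 0.99. The heme oxygenase gene Hmox1 had 92.8 and 105 CPM in CD9+ and 9.09 and 10.9 CPM in F4/80- libraries (log2 fold change 3.31, standard error 0.33, edgeR adjusted p = 4.41e-06).

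Of the function lists, that of matrix and protease genes held the most genes called higher: 21 of 28 tested genes were called higher and 0 lower, with a median log2 fold change of 3.29. Fewer of its genes were called higher whichever of the 4 libraries was left out. Spp1, the osteopontin gene, which is also on the lipid list, had 286 and 498 CPM in CD9+ and 17.5 and 15.1 CPM in F4/80- libraries (log2 fold change 4.59, standard error 0.26, edgeR adjusted p = 2.56e-08). Fn1, encoding fibronectin, had 3353 and 4583 CPM in CD9+ and 1354 and 1252 CPM in F4/80- libraries (log2 fold change 1.61, standard error 0.23, edgeR adjusted p = 2.16e-04). Spp1 and Fn1 were both higher in each CD9+ library, and the F4/80- libraries also held over 1000 CPM of Fn1. Mmp14, the gene of a membrane-bound collagenase, had 81.3 and 134 CPM in CD9+ and 1.09 and 2.29 CPM in F4/80- libraries (log2 fold change 6.01, standard error 0.36, edgeR adjusted p = 3.41e-08). Mmp12, the macrophage elastase gene, had 39.4 and 65.7 CPM in CD9+ and 1.53 and 2.94 CPM in F4/80- libraries (log2 fold change 4.56, standard error 0.61, edgeR adjusted p = 1.03e-04). Timp2, which encodes an inhibitor of these proteases and an activation partner of MMP14, had 115 and 175 CPM in CD9+ and 6.91 and 11.5 CPM in F4/80- libraries (log2 fold change 3.98, standard error 0.34, edgeR adjusted p = 1.20e-06). The protease inhibitor gene Serpinb2 had 44.5 and 57.8 CPM in CD9+ and 0.436 and 0.408 CPM in F4/80- libraries (log2 fold change 6.89, standard error 0.47, edgeR adjusted p = 1.27e-07). Ecm1 had 133 and 186 CPM in CD9+ and 3.56 and 4.73 CPM in F4/80- libraries, and Thbs1, the thrombospondin-1 gene, had 880.2 and 972 CPM in CD9+ and 90.7 and 116 CPM in F4/80- libraries. Mmp9, a gelatinase gene that is also on the osteoclast and neutrophil lists, had 165 and 142 CPM in CD9+ and 28.4 and 44.8 CPM in F4/80- libraries, and its call was lost without F4/80- library 1. The stroma and endothelium list, whose part in the matrix values was not tested, had 2 of 8 tested genes called higher and a sum of 90.7 and 102 CPM in the CD9+ libraries and 69.7 and 65.9 CPM in the F4/80- libraries. The number called was 1 without CD9+ library 1 and 0 without any of the other 3 libraries. Col1a1 had 14.1 and 17.2 CPM in CD9+ and 2.47 and 3.02 CPM in F4/80- libraries and was not called (edgeR adjusted p = 0.085).

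The promoter of Spp1 (chromosome 5, 104435118 to 104441050 for the gene) held GAGGAAGT, the site of PU.1. This string was found in 2.44% of all promoters, in 2.97% of those of tested genes and in 6.13% of those of genes called higher. It was also in 3 of 15 promoters of the progenitor and azurophil granule list and 3 of 19 of the neutrophil list. Other strings were also more frequent among genes called higher than among tested genes. The shares were 10.4% and 4.45% for TGANTCA, and 6.98% and 2.9% for the interferon-stimulated response element. The promoter of Spp1 is shown with GAGGAAGT in capitals.
Spp1, chr5:104434961-104435110, plus strand: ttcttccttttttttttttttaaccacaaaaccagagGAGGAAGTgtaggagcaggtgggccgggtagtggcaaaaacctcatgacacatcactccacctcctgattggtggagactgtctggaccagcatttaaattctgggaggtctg

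Growth factor genes moved in both directions. In the repair growth factor list, 6 of 14 tested genes were called higher and 2 lower, with a median log2 fold change of 0.63, and the number called higher was 3 without CD9+ library 2 or F4/80- library 1 and 2 without F4/80- library 2. Pdgfb, a platelet-derived growth factor gene, had 18.9 and 24.8 CPM in CD9+ and 0.582 and 0.571 CPM in F4/80- libraries (log2 fold change 5.22, standard error 0.58, edgeR adjusted p = 1.33e-05). Hgf, the hepatocyte growth factor gene, was higher in F4/80- cells, with 20.4 and 28.3 CPM in CD9+ and 75.1 and 68.3 CPM in F4/80- libraries (log2 fold change -1.56, standard error 0.25, edgeR adjusted p = 4.86e-04). Inhba, which encodes a chain of activin A, had 50.01 and 35.2 CPM in CD9+ and 96.4 and 118 CPM in F4/80- libraries, a call lost without CD9+ library 2 or F4/80- library 2. Tgfb1 was measured at 194 and 203 CPM in CD9+ and 175 and 177 CPM in F4/80- libraries and was not called. In the alternative activation list, 4 of 14 tested genes were called higher and 1 lower, with a median log2 fold change of 0.39. Arg1 and Mrc1, given above, were 2 of the genes called higher, and Alox15, the lipoxygenase gene of eosinophils and some macrophages, had 368 and 498 CPM in CD9+ and 39.9 and 46.3 CPM in F4/80- libraries (log2 fold change 3.33, standard error 0.22, edgeR adjusted p = 8.83e-08). Chil3 was called lower, with 1281 and 829 CPM in CD9+ and 2263 and 2408 CPM in F4/80- libraries, a call lost without CD9+ library 2.

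Chemokine genes separated the populations in both directions: 13 of 19 tested genes were called higher and 2 lower, with a median log2 fold change of 3.795. Without CD9+ library 2, 8 were called higher. With the genes of 3 counts or fewer in the lower group at their bound, the list median was 3.02. The summed level of the list overlapped between the groups, with 1105 and 1413 CPM in CD9+ and 1187 and 1095 CPM in F4/80- libraries. Cxcl2, a neutrophil-attracting chemokine gene, had 133 and 239 CPM in CD9+ and 10.6 and 11.2 CPM in F4/80- libraries (log2 fold change 4.09, standard error 0.37, edgeR adjusted p = 2.25e-06). Cxcl3 had 17.7 and 34.2 CPM in CD9+ and 0.364 and 1.22 CPM in F4/80- libraries (log2 fold change 5.05, standard error 0.61, edgeR adjusted p = 3.33e-05). Cxcl1 had 5.86 and 8.41 CPM in the CD9+ libraries and no read in either F4/80- library, so it was at least 61.5-fold higher against a floor of 3 counts over both F4/80- libraries. Ccl2, the main monocyte attractant gene, had 63.9 and 88.2 CPM in CD9+ and 34.4 and 29.5 CPM in F4/80- libraries (log2 fold change 1.25, standard error 0.21, edgeR adjusted p = 6.43e-04), and the call was lost without CD9+ library 2. Cxcl16 had 51.4 and 90.4 CPM in CD9+ and 4.58 and 5.63 CPM in F4/80- libraries (log2 fold change 3.795, standard error 0.28, edgeR adjusted p = 2.80e-07). The 2 genes called lower have like functions. Ccl3 had 109.9 and 102 CPM in CD9+ and 491 and 455 CPM in F4/80- libraries (log2 fold change -2.16, standard error 0.25, edgeR adjusted p = 2.27e-05). Ccl4 had 31.5 and 18.96 CPM in CD9+ and 166 and 152 CPM in F4/80- libraries (log2 fold change -2.65, standard error 0.28, edgeR adjusted p = 1.02e-05). In the chemokine receptor list, 3 of 10 tested genes were called higher and 1 lower, with a median log2 fold change of 0.34. The lower call was lost without CD9+ library 2, F4/80- library 1 or F4/80- library 2.

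GGAANTTCC was present in 5 of 15 chemokine promoters, 0.813% of all promoters and 1.08% of those of tested genes. It was found in 11 of the 587 promoters of genes called higher (1.87%) and in 0 of the 103 of genes called lower. The 5 chemokine genes were Ccl12, Cxcl1, Cxcl2, Cxcl3 and Cxcl10. Each was called higher in CD9+ macrophages, beside 13 of the 19 tested genes of the list. The calls of Ccl12 and Cxcl10 were lost without CD9+ library 2, F4/80- library 1 or F4/80- library 2, and those of the other 3 genes were kept whichever library was left out. The 150 bases before 3 of these genes, which all lie on chromosome 5, are shown with the string in capitals.
Cxcl1, chr5:90891095-90891244, plus strand: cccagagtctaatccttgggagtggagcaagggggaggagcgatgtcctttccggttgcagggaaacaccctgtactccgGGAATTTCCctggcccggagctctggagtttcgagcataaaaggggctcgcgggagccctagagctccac
Cxcl2, chr5:90903749-90903898, plus strand: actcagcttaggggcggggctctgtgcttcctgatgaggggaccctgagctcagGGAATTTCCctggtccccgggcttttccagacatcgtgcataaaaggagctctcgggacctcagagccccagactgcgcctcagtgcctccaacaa
Cxcl3, chr5:90785951-90786100, plus strand: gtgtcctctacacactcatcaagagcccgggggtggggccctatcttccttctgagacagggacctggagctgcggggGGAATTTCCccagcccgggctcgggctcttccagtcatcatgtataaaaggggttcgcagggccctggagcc

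In the list of inflammatory cytokines and enzymes, 9 of 25 tested genes were called higher and 2 lower, with a median log2 fold change of 0.025. The number called lower was 1 without CD9+ library 2 or F4/80- library 1. Il6 (chromosome 5, 30013114 to 30019981) had the smallest p-value of the genes called lower, with 17.9 and 15.7 CPM in CD9+ and 133 and 122 CPM in F4/80- libraries (log2 fold change -2.92, standard error 0.27, edgeR adjusted p = 2.36e-06). Il1b had 73.04 and 78.6 CPM in CD9+ and 22.3 and 25.2 CPM in F4/80- libraries (log2 fold change 1.68, standard error 0.19, edgeR adjusted p = 1.89e-05). Il1rn, which encodes the receptor antagonist of interleukin-1, had 45.9 and 75.4 CPM in CD9+ and 9.82 and 10.04 CPM in F4/80- libraries (log2 fold change 2.61, standard error 0.27, edgeR adjusted p = 6.72e-06). Both the cytokine and its antagonist were thus higher in CD9+ macrophages. Tnf had 47.2 and 46.8 CPM in CD9+ and 58.9 and 60.4 CPM in F4/80- libraries and was not called (edgeR adjusted p = 0.417). Clec4d, a C-type lectin receptor gene, had 25.3 and 41.5 CPM in CD9+ and 1.38 and 2.77 CPM in F4/80- libraries (log2 fold change 4.02, standard error 0.37, edgeR adjusted p = 2.36e-06). Socs3, a feedback inhibitor gene of cytokine signalling, had 66.6 and 119 CPM in CD9+ and 11.8 and 11.4 CPM in F4/80- libraries. In the MHC class II list, 6 of 15 tested genes were called higher and 0 lower, with a median log2 fold change of 0.75. Cd74, the invariant chain gene, had 771 and 914 CPM in CD9+ and 250.03 and 265 CPM in F4/80- libraries (log2 fold change 1.71, standard error 0.16, edgeR adjusted p = 3.17e-06). H2-Ab1 had 379.9 and 454 CPM in CD9+ and 115 and 139.97 CPM in F4/80- libraries (log2 fold change 1.71, standard error 0.17, edgeR adjusted p = 5.00e-06). In the list of interferon-stimulated genes, 11 of 28 tested genes were called higher and 1 lower, with a median log2 fold change of 0.79. That number was 4 without CD9+ library 2 or F4/80- library 1 and 6 without F4/80- library 2. The summed level of the list was 550 and 659 CPM in CD9+ and 573 and 582 CPM in F4/80- libraries, so the groups overlapped. In the CX3CR1+ libraries it was 1406 and 1570 CPM, with 16 list genes called lower in CD9+ than in CX3CR1+ macrophages and 1 higher. Oasl2 had 16.5 and 37.6 CPM in CD9+ and 4.95 and 4.24 CPM in F4/80- libraries (log2 fold change 2.55, standard error 0.35, edgeR adjusted p = 1.32e-04). Ifitm1 was the gene called lower, with 8.25 and 5.07 CPM in CD9+ and 44.8 and 40.2 CPM in F4/80- libraries (log2 fold change -2.67, standard error 0.27, edgeR adjusted p = 5.94e-06).

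In the cell cycle list, 0 of 40 tested genes were called higher and 3 lower, with a median log2 fold change of -0.29. They were Gins2, Cdc6 and Ccne2, each of DNA replication or the entry into it, and their number was 0 without CD9+ library 2 and 7 without CD9+ library 1. The proliferation gene Mki67 had 2842 and 1990.4 CPM in CD9+ and 3126 and 3386 CPM in F4/80- libraries and was not called. Of the 54 ribosomal protein genes tested, 0 were called by edgeR, 51 had a negative log2 fold change, and the median was -0.196. In the glycolysis and hypoxia list, 3 of 25 tested genes were called higher and 0 lower, with a median log2 fold change of 0.11, with 1 gene called when CD9+ library 2, F4/80- library 1 or F4/80- library 2 was left out. Bnip3 had 16.1 and 15.5 CPM in CD9+ and 4.95 and 4.41 CPM in F4/80- libraries (log2 fold change 1.75, standard error 0.16, edgeR adjusted p = 2.35e-06). Among myeloid transcription factors, 9 of 40 tested genes were called higher and 1 lower, with a median log2 fold change of 0.44. Mitf, a regulator gene of lysosomes and osteoclasts, had 41.9 and 58.8 CPM in CD9+ and 7.35 and 8.41 CPM in F4/80- libraries (log2 fold change 2.68, standard error 0.25, edgeR adjusted p = 2.58e-06). Egr1, an immediate early gene, was called lower with 242 and 218 CPM in CD9+ and 519.7 and 468 CPM in F4/80- libraries (log2 fold change -1.103, standard error 0.21, edgeR adjusted p = 0.00235). Spi1, encoding PU.1, was not called, with 270.00 and 262 CPM in CD9+ and 251 and 249 CPM in F4/80- libraries. Of the tetraspanin genes, the family of Cd9, 2 of 14 were called higher, Cd151 and Tspan17, and 0 of them when any of the 4 libraries was left out. Among integrins and adhesion genes, 6 of 22 tested genes were called higher and 1 lower, with a median log2 fold change of 0.296. The lower call was lost whichever of the 4 libraries was left out. Itgb5 had 57.7 and 104 CPM in CD9+ and 7.19995 and 6.45 CPM in F4/80- libraries (log2 fold change 3.56, standard error 0.31, edgeR adjusted p = 1.29e-06).

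The same contrast was available at day 1, from other mice and other libraries. At day 1, 1847 genes (15.4%) were called, 1108 higher in CD9+ macrophages (9.23%) and 739 lower (6.16%). Of the 791 genes called higher at day 14, 561 (70.9%) were called higher at day 1, which is 50.6% of those of day 1, and of the 133 called lower, 101 (75.9%) were called lower at day 1, which is 13.7% of those of day 1. The change of the contrast between the days, tested as a term of the same model, was called for 203 genes (1.69%), 132 positive (1.1%) and 71 negative (0.592%). Scaled by library size alone, day 1 gave 802 genes higher and 1245 lower and the difference 215 positive and 40 negative, with the median of all genes shifted by -0.28 and 0.21 on the log2 scale. Leaving out 1 library at a time gave between 15 genes, without F4/80- library 1 of day 14, and 961 genes, without CD9+ library 1 of day 1. The 2 CD9+ libraries of day 1 were less alike than those of day 14, with a Pearson correlation of 0.935.

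Retnlg had the smallest p-value for the difference. At day 1 it had 122 and 101 CPM in the CD9+ libraries and 123 and 98.3 in the F4/80- libraries, a log2 fold change of 0.018 that became 4.47 at day 14 (difference 4.46, standard error 0.397, edgeR adjusted p = 1.31e-04). The F4/80- level dropped between the days while the CD9+ level rose. Timp2 had 24.04 and 10.3 CPM in the CD9+ and 13.1 and 14.3 in the F4/80- libraries of day 1, with overlap, and a log2 fold change of 0.36 (difference 3.62, standard error 0.46, edgeR adjusted p = 0.00157). At day 14 both CD9+ libraries were above those of day 1, and both F4/80- libraries below. Serpinb2 went from 2.23 to 6.89 (edgeR adjusted p of the difference = 0.00157), and Dab2 from 2.899 to 6.25 (edgeR adjusted p of the difference = 5.72e-04). Mmp12, with 3.89 and 4.65 CPM in the CD9+ and 1.41 and 3.12 in the F4/80- libraries of day 1, and Mmp9, with 186 and 83.2 and 538 and 404, also had a positive difference called. Without F4/80- library 1 of day 14 neither of these 2 differences was called, and that of Mmp12 was also lost without CD9+ library 1 or 2 or F4/80- library 2 of day 14 or without F4/80- library 2 of day 1. The long noncoding RNA Mirt1 was lower in CD9+ macrophages at day 1, with 5.87 and 7.08 against 45.2 and 43.8 CPM, and at day 14 it had 21.7 and 19.4 CPM in CD9+ and 20.6 and 20.9 CPM in F4/80- libraries. Dhrs9, a retinol dehydrogenase gene, went from -0.98 to 0.96.

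Of the negative differences, that of Ccl2 had the smallest p-value. At day 1 it had 546 and 393 CPM in the CD9+ libraries and 40.8 and 45.5 in the F4/80- libraries, a log2 fold change of 3.44 beside 1.25 at day 14 (difference -2.19, standard error 0.28, edgeR adjusted p = 0.00167). The CD9+ level of Ccl2 was thus lower at day 14, and the F4/80- level was lower too, by less. Thbd, the thrombomodulin gene, went from 2.66 to 0.36, Cd93 from 2.003 to 0.49, Arrdc4 from 1.84 to 0.296 and the immediate early gene Ier3 from 1.56 to -0.75. Cd244a, a receptor gene of natural killer and myeloid cells, went from 0.46 to -0.76. Without F4/80- library 1 of day 14 the difference was not called for Thbd, Cd93, Ier3 and Cd244a. Fn1 also had a negative difference, with 12667 and 16754 CPM in the CD9+ and 1393 and 1301 in the F4/80- libraries of day 1 (-1.84, standard error 0.32, edgeR adjusted p = 0.0101). That call was lost without F4/80- library 1 of day 14 or F4/80- library 2 of day 1. Of the basophil list, Mcpt8, Prss34 and Gata2 were on the same side at both days: the log2 fold change of Mcpt8 was -2.93 at day 1, that of Prss34 -2.61 and that of Gata2 -3.49, and none of these differences between days was called. Hdc of the same list had a called difference, with a log2 fold change of -2.28 at day 1 and -0.49 at day 14 (difference 1.796, standard error 0.35, edgeR adjusted p = 0.0177), which was lost when any of the 4 libraries of day 14 or either F4/80- library of day 1 was left out.

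**Figure D4:**
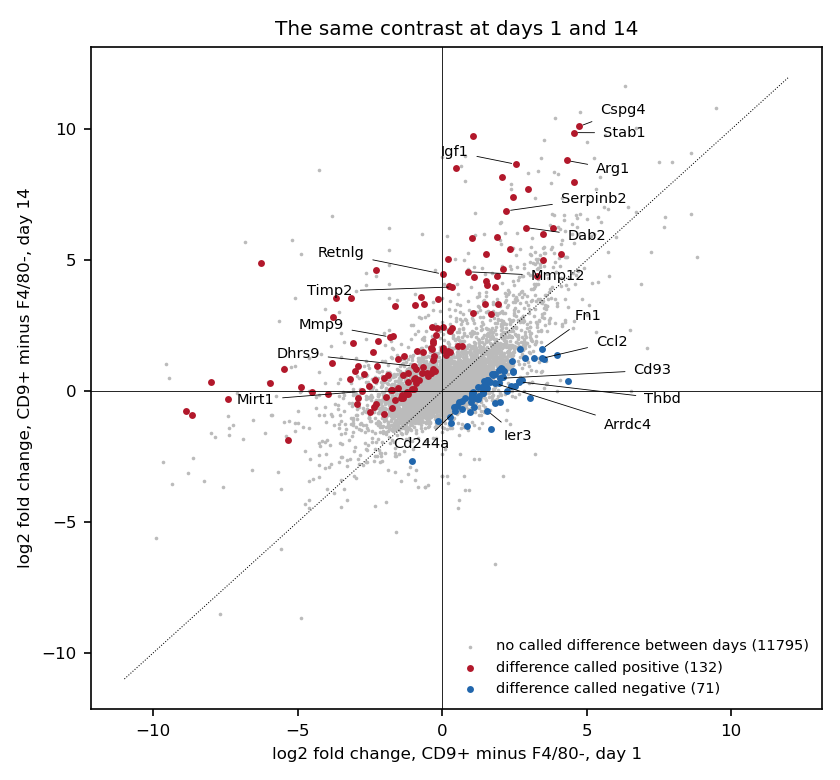
Log2 fold change of CD9+ minus F4/80- cells at day 1 (x axis) and day 14 (y axis) for the 11998 tested genes, with the 132 genes of a called positive difference between days in red and the 71 of a called negative difference in blue; the dotted line marks equal values. Retnlg, Timp2 and Mmp9 lie near or left of 0 at day 1 and above it at day 14, and Ccl2 and Fn1 lie below the dotted line.

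CX3CR1+ macrophages of day 14, sorted from F4/80+ cells, were set against the same F4/80- libraries, so the 2 contrasts share them and their values are only given side by side. Against F4/80- cells, 2578 genes (21.5%) were called, 1334 higher (11.1%) and 1244 lower (10.4%). Apoe had 721 and 736 CPM in the CX3CR1+ libraries, a log2 fold change against F4/80- cells of 4.69 beside 5.31 for CD9+ macrophages. Spp1 had 14.8 and 20.6 CPM in the CX3CR1+ libraries, a log2 fold change of 0.12 beside 4.59. For Epx the CX3CR1+ libraries had 22.05 and 10.1 CPM, for Ctsk 0.697 and 2.23 and for Mmp12 0.436 and 0.743. The CD9+ levels of these 4 genes, given above, exceeded the CX3CR1+ levels in both libraries. Pla2g7 had 121 and 127 CPM in the CX3CR1+ libraries and was not called between CD9+ and CX3CR1+ macrophages (log2 fold change -0.178). CX3CR1+ sums overlapped with the CD9+ sums for macrophage identity (1858 and 2037 CPM) and efferocytosis (2331 and 2467 CPM). They were above both CD9+ sums for the lysosome (11344 and 11790 CPM) and MHC class II lists (3789 and 3945 CPM). For others, such as the osteoclast list, they were below both (513 and 553 CPM). Ccr2 had 1427 and 1529.97 CPM in the CX3CR1+ libraries, which lay above both CD9+ and both F4/80- libraries. For Mcpt8 the CX3CR1+ libraries had 0.261 and 0.557 CPM and for Il6 1.92 and 2.51 CPM, below the CD9+ libraries in both cases.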

How the data were processed

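Bulk RNA-seq libraries were made with a stranded SMART-Seq kit from sorted cells. The authors mapped reads to mm10 with STAR, counted exonic reads against Gencode genes and deposited raw counts per gene. All 16 libraries entered 1 fit in edgeR 4.0.16 (R 4.3.3, limma 3.58.1) that estimated 8 group means, TMM scaling and the quasi-likelihood test, and adjusted p-values follow Benjamini and Hochberg over the 11998 tested genes. DESeq2 1.42.0 served as an alternative, beside other scalings, filters and thresholds, a replicate block and fits without each library. In simulated counts, 89% of 100 genes changed by log2 1.5 and 100% of 100 changed by log2 3 were called in this comparison. There were 4 false calls among 10845 genes. Whether these rates hold for the measured counts was not tested.

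Named genes were the 12 largest and 12 smallest log2 fold changes of at least 20 CPM in the higher group, the 10 smallest p-values in each direction, the 6 smallest p-values in each direction for the difference between days, and members of 33 lists. The lists, members and promoter strings were chosen with earlier results of these data known. Other genes named were chosen after their values were seen. Deviations of same-numbered CD9+ and F4/80- libraries correlated by 0.0477 across genes at day 14 and 0.0206 at day 1. Those of the 6 pairs of day 14 populations correlated by 0.0477 to 0.159. These low values cannot show whether same-numbered libraries came from the same mice. The labels do not say so, and the paper gives fewer mice than separate pools for all 16 libraries would need. The main fit did not use replicate numbers as pairs, and a replicate block served as an alternative. Intervals were computed from summed reads, so they cover counting error only and leave out the spread between pools. PCR reads without molecular identifiers are not independent molecules, so the intervals can be too narrow even for that error.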

Additional observations from a re-analysis of the deposited data

Results flagged for a closer look

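The contrast of CD9+ macrophages with F4/80- cells differed between day 14 and day 1, tested as a term of the edgeR model, for 33 genes named here. Values are log2 differences, day 14 minus day 1, with edgeR adjusted p under the 0.05 threshold for each.

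For 25 genes the difference was positive. Among genes of the macrophage surface, endocytosis and lipid handling it was 5.32 for Stab1, 3.35 for Dab2, 1.54 for Myof, 1.11 for Nrp2 and 1.16 for Pla2g7. Among genes of matrix, proteases and their inhibitors it was 4.66 for Serpinb2, 3.87 for Mmp9, 3.66 for Mmp12, 3.62 for Timp2, 2.51 for Mmp14 and 5.37 for Cspg4. For growth factor and metabolic genes it was 6.12 for Igf1, 3.72 for Pdgfb, 4.50 for Arg1, 1.94 for Dhrs9 and 1.39 for Alox15, for antigen presentation genes 1.16 for Cd74 and 1.03 for H2-Ab1, and for genes of granulocytes and basophils 4.46 for Retnlg, 3.07 for Ear2 and 1.80 for Hdc. The others were 6.12 for Ahnak2, 3.44 for Pdpn, 2.78 for Mirt1 and 1.55 for Ighm. The values of Igf1, Arg1 and Cspg4 rest on 2 counts over both F4/80- libraries of day 14 and depend on the prior count. Those of Ahnak2 and Pdpn rest on 4 counts there and that of Stab1 on 5, so they are also near the floor. A positive difference need not be a rise in CD9+ macrophages. Arg1 had 2180 and 2602 CPM in CD9+ and 111 and 129 CPM in F4/80- libraries of day 1, so both populations were lower at day 14. The CD9+ levels of Pdpn (135 and 205 CPM at day 1) and Dab2 (272 and 284 CPM) were also lower at day 14, while those of Igf1, Cspg4, Serpinb2 and Timp2 were higher.

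For 8 genes it was negative, with -2.31 for Ier3, -2.31 for Thbd, -2.19 for Ccl2, -1.84 for Fn1, -1.64 for Ifitm1, -1.54 for Arrdc4, -1.51 for Cd93 and -1.21 for Cd244a.

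Of the 33 genes, 9 kept the call when any 1 library was left out, namely Arrdc4, Ccl2, Dab2, Dhrs9, Ear2, Mirt1, Retnlg, Serpinb2 and Timp2. The other 24 lost it without F4/80- library 1 of day 14, and the cause was not tested.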

How the results depend on the processing

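The day 14 count of 924 genes was within 1.5 times of itself in 10 of the 12 alternatives that kept all 4 libraries, and no called log2 fold change of a gene named here or on a list changed sign in any alternative. Values near 0 that were not called did, such as Ccr2 at day 14, between -0.17 and 0.16 with 1 library left out, and the day 14 median over all genes, 0.0079, was -0.0589 with library size scaling. A mean of at least 3 CPM required in each group tested fewer genes and left 323 at day 14, 677 at day 1, 100 for the difference between days and 1284 for CX3CR1+ against F4/80- cells. Without a fold threshold the counts were 1513, 3488 and 4438 for day 14, day 1 and CX3CR1+ cells. For the difference between days, DESeq2 called 377 genes and glmTreat against 1.5-fold 61, against 203, and the cause was not tested. Leaving out 1 library gave 534 to 952 genes at day 14, 1473 to 2788 at day 1, and 15 to 961 for the difference, with the lowest number without F4/80- library 1 of day 14 and the highest, as for day 1 itself, without CD9+ library 1 of day 1. Blocking on the replicate number, 938 genes were called at day 14, 896 of them shared with the 924, and 241 for the difference between days. Whether replicate numbers pair the libraries is not known, so the block is given beside the main fit. The 2 pools per group limit the precision, and for genes with 3 counts or fewer in one group the depth limits the size of the difference that can be given.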
